A study of Mus musculus with 192 samples.

Results

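The regions described here are all 1314 peaks listed on the mitochondrial chromosome in 96 naïve mouse embryonic fibroblasts (MEFs, connective-tissue cells cultured from mouse embryos), out of 1082504 peaks listed in the 192 single cells of the series. They were chosen by chromosome name alone. Each cell was profiled by single-cell start-site sequencing, an assay of the 5′ ends of polyadenylated RNA in which a read (here a tag) begins where the captured RNA began. The naïve cells were MEFs of strain C57BL/6, kept on uncoated plastic in DMEM with 10% serum, labelled as naïve in pretreatment, and all had received IFN-beta (an antiviral cytokine) at 100 U/ml for 1 h. The labels name no animal, embryo pool, culture or plate, so the group is treated as 1 sample and nothing below is a test. The other 96 cells are not analysed here.

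Mammalian mitochondrial DNA is a small circle that is copied into RNA from both strands, starting in the non-coding control region. The long primary transcripts are cut at the tRNAs that sit between the other genes, and the mRNAs and rRNAs released in this way receive short poly(A) tails. The 5′ end of a mature mitochondrial RNA is therefore mostly a cut end, not a place where the polymerase started.

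After 4 shallow cells were left out, 92 cells remained, with 305066 to 3857034 tags each (median 2305628), and they hold 1287 of the 1314 mitochondrial peaks. Of 9 fibroblast marker genes all 9 were listed, with Vim and Sparc in 92 of 92 cells and Thy1 in 1, and their summed level was 1000 to 10326 tags per 1000000 tags in peaks per cell (median 4744). All 4 epithelial and all 3 endothelial markers were at 0. Of 3 leukocyte markers, Cd68 was listed in 8 cells (0 to 269 tags per 1000000 per cell), and Ptprc and Adgre1 were matched to no window.

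Peaks in different cells were joined into 1 site where their centres on the same strand lay within 20 bp of the next. Sites are named below by their commonest centre and strand, on genome build mm9, and windows are printed as deposited. The letters come from GENCODE transcripts of build GRCm38, whose numbering of the mitochondrial chromosome was used as that of mm9. The peak centres bear on this: they fell exactly on the first base of mt-Cytb in 84 cells, the same position in each. At mt-Nd1 they fell on the first base in 7 cells and 1 base inside in 19. With each distinct centre counted once, guanine was also most frequent at the same offset, 1 base before the centre, in both outer segments of 3 equal segments of the chromosome (66.9% of 127 centres and 58.2% of 177). The middle segment has 12 centres and says little. The sequences below are shown because these sites carry most mitochondrial tags or show the base pattern described later. Each is the strand of the peak, 5′ to 3′, with 15 bases before the centre and 15 from the centre on, and capitals mark the 2 bases just before the centre.
6191+ in mt-Co1 (chrM:6116-6266): aggctttattgtaTGagcccaccacatatt
1216+ in mt-Rnr2 (chrM:1141-1291): atagaactagtacCGcaagggaaagatgaa
2213+ in mt-Rnr2 (chrM:2138-2288): aatttattaaaccTAatggcccaaaaacta
3337+ in mt-Nd1 (chrM:3262-3412): cagaaacaaaccgGGcccccttcgacctga
1865+ in mt-Rnr2 (chrM:1790-1940): acttctctgttaaCCcaacaccggaatgcc
12437+ in mt-Nd5 (chrM:12362-12512): tggcctccacccaTGactaccatcagcaat
11126+ in mt-Nd4 (chrM:11051-11201): aataatcgcacatGGcctcacatcatcact
179+ in mt-Rnr1 (chrM:104-254): aatttaaggagagGGtatcaagcacattaa
2752+ at the start of mt-Nd1 (chrM:2677-2827): tcctctccctaatAGtgttctttattaata
3777+ opposite mt-Tq (chrM:3702-3852): cctcttatttctaGGacaataggaattgaa
2559- opposite mt-Rnr2 (chrM:2484-2634): tcctttcgtactgGGagaaatcgtaaatag
1983- opposite mt-Rnr2 (chrM:1908-2058): actttagtcactgGGcaggcagtgcctcta
For the site at the first base of mt-Cytb, 14145+ (chrM:14070-14220), the 30 bases from the centre on are shown, with no capitals.
14145+ in mt-Cytb: atgacaaacatacgaaaaacacacccatta
The mt-Cytb site thus begins with the ATG that opens its reading frame. Of the 10 sites with the most tags, 16169- lies in the control region.

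Listed mitochondrial peaks were few and tall. A cell listed 9 to 19 of them (median 14), among a median of 5231.5 peaks of all chromosomes. The median mitochondrial signal was 2901 tags per 10000000 tags of the cell (median of the cell medians), against 646 for the nuclear peaks of the same cells. It was higher in 92 of 92 cells. To be listed, a peak had to reach 2 times the tag density of the 10000 bp around it. These surroundings held at most 1 tag for 55.1% of nuclear peaks and for 1 of the 1287 mitochondrial peaks. The part of this filter in the number and signal of listed peaks was not tested. The tallest mitochondrial peak of a cell ranked between 3rd and 239th among all its peaks (median 51).

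The mitochondrial share of a cell's tags in peaks was 0.422% at the lowest, 0.714% at the median and 2.55% at the highest, with quartiles of 0.610% and 0.888%. The highest value belongs to naïve cell 31, which also had the fewest tags of the cells kept (305066). The next highest share was 1.51%, in naïve cell 43. Over the 92 cells the share went with total tags at Spearman's rho of -0.25 and Pearson's r of -0.29. The number of mitochondrial peaks went with total tags at a rho of 0.045. These correlations describe cells of 1 sample, and both measures in each come from the same library.

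**Figure D1:**
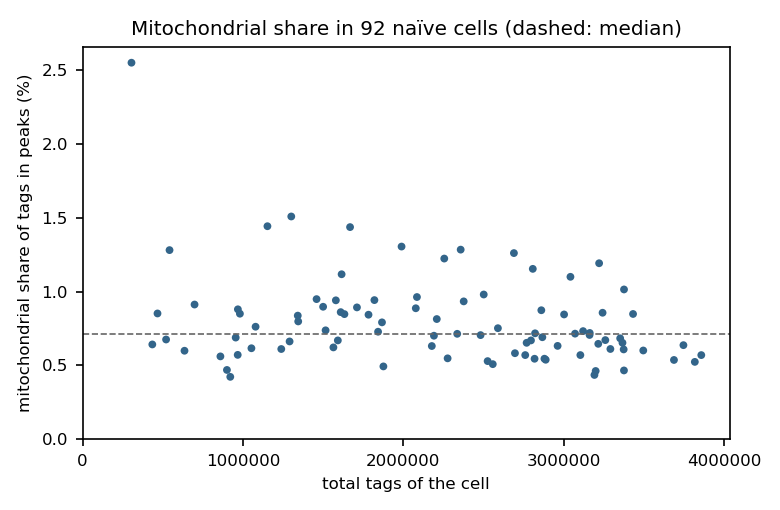
Mitochondrial share of the tags in peaks (%, vertical axis) against the total tags of the cell (number of tags, horizontal axis), 1 point per kept naïve cell, with the median of 0.714% as a dashed line. Naïve cell 31, the shallowest kept cell, stands at 2.55%, and all other cells lie between 0.422% and 1.51%.

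The strands were very unequal. The + strand, which carries 28 of the 37 annotated mitochondrial genes, held 985 of 1287 peaks (76.5%, 95% exact interval 74.1% to 78.8%). It held 96.1% of the tags (1335223 of 1390011). Within single cells the + strand's share of mitochondrial tags was 89.3% at the lowest, 96.5% at the median and 99.1% at the highest, so every kept cell leaned the same way. A cell listed 7 to 14 peaks on the + strand and 1 to 7 on the - strand. The - strand peaks were also lower, with a median signal of 484.25 against 3866 on the + strand.

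Tags were concentrated in a small set of sites. The 1287 peaks had 328 distinct centres, which joined into 142 sites, 95 on the + strand and 47 on the - strand. Of these, 24 were listed in at least 10% of cells (19 on the + strand, 5 on the - strand) and 9 in at least 50%. The 24 sites held 88.5% of mitochondrial tags, and the 10 with the most tags held 80.6%. At the other end, 54 sites were listed in 1 cell each and together held 0.993% of tags.

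**Figure D2:**
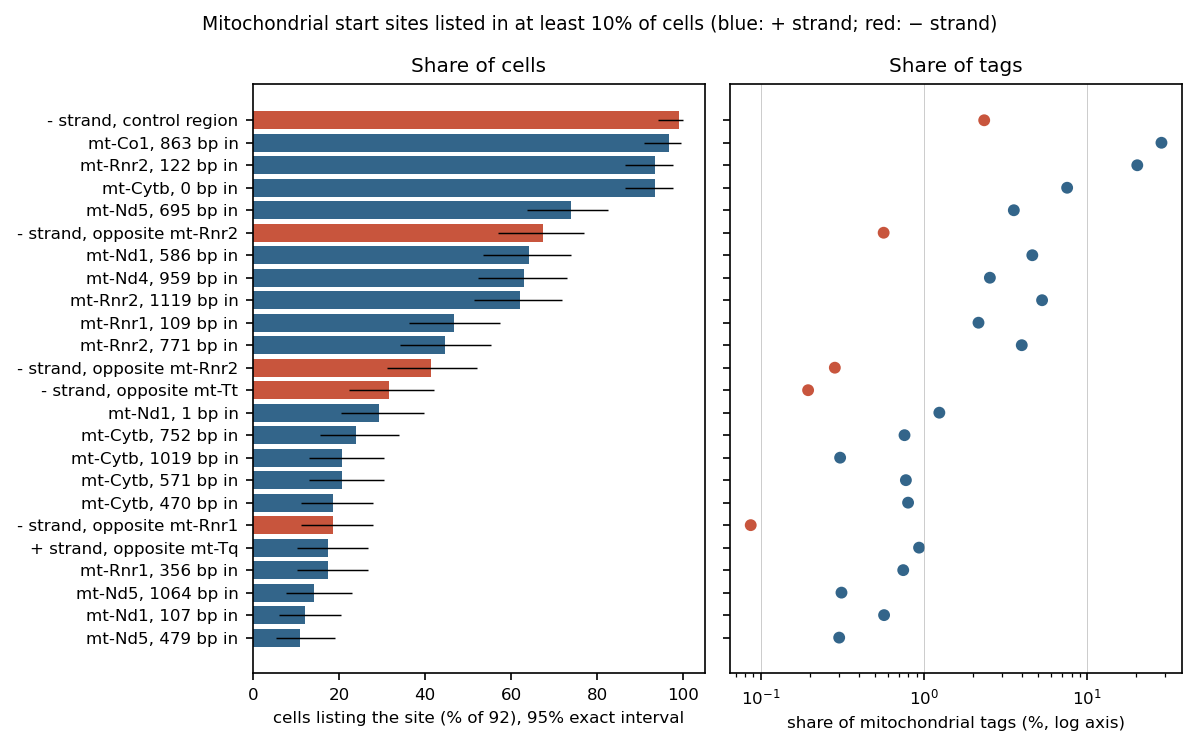
The 24 sites listed in at least 10% of kept cells, named by gene and distance from its annotated 5′ end, with the share of 92 cells listing each (left, %, error bars are 95% exact binomial intervals) and its share of mitochondrial tags (right, %, log axis). The control-region site of the - strand is the one listed in most cells (98.9%), while the mt-Co1 site holds the most tags (28.4%).

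The leading site lies inside mt-Co1, the gene of a core subunit of cytochrome c oxidase, 863 bp from its annotated 5′ end. It was listed in 89 of 92 cells, and in all 89 the centre was the same base, 6191. Its signal was 2566 at the lowest, 15559 at the median and 91828 at the highest. It held 28.4% of all mitochondrial tags, with 3.57% to 67.3% (median 24.9%) within the cells that list it, and was the tallest mitochondrial peak in 52 cells. The median focus ratio, a deposited fraction of the peak's tags that lies near its summit, was 0.958 there. The 2 bases before its centre are TG.

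The next site lies 122 bp into mt-Rnr2, the 16S rRNA of the mitochondrial large ribosomal subunit. It was listed in 86 cells with signals of 5566, 14329 and 67330 at the lowest, median and highest, held 20.2% of tags, and was the tallest in 38 cells. Its share of a cell's mitochondrial tags ranged from 13.2% to 34.4%, a narrower range than that of the mt-Co1 site. Unlike there, the centre moved between cells: it was at 1216 in 36 cells, at 1222 in 22 and at 1189 in 20. The median focus ratios of these 3 centres were 0.8315, 0.943 and 0.4905. The centre at 1189 was thus the least focused of the 3. Each of the 86 cells listed 1 of the site's centres. The peak caller's minimum distance was 300 bp, and of 1103 neighbouring pairs on 1 strand of a cell, 7 lay closer than that, the closest at 198 bp. The mt-Rnr2 sites 1118+ (4 cells) and 1297+ (2 cells, the tallest mitochondrial peak in 2) lie nearer than 198 bp to this site. No cell listed either of them together with this site.

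The site at the first base of mt-Cytb, which encodes the cytochrome b subunit of complex III, ranked next by tags. It was listed in 86 cells, in 84 of them at exactly the annotated 5′ end. The signal was 2281 at the lowest, 5404 at the median and 17701 at the highest, and the site held 7.52% of tags with a median focus ratio of 0.896. This was the site with the most tags at a gene's annotated 5′ end.

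The other + strand sites among the 10 with the most tags lie inside genes. The mt-Rnr2 sites at 2213 and 1865, in 57 and 41 cells, held 5.28% and 3.97% of tags. Those in genes of complex I subunits were 3337+ in mt-Nd1 (59 cells, 4.60%), 12437+ in mt-Nd5 (68 cells, 3.55%) and 11126+ in mt-Nd4 (58 cells, 2.53%). The site 179+ in mt-Rnr1, the 12S rRNA of the small ribosomal subunit, was listed in 43 cells with 2.15% of tags. Their signal medians ran from 2530.5 to 5404, and each was listed in some cells and missing in others. They differed in sharpness: the median focus ratio was 0.9755 at 12437+, 0.743 at 1865+, 0.731 at 2213+, 0.6495 at 11126+, 0.607 at 3337+ and 0.551 at 179+. They also differed in how far the centre moved between cells: 3337+ had 14 centres, 179+ and 1865+ had 11 each, and 2213+ had 3.

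On the - strand the control region dominated. The site 16169- was listed in 91 of 92 cells, more than any other site, although it held 2.34% of tags. Its signal was 248 at the lowest, 1197 at the median and 7367 at the highest, and its median focus ratio was 0.984. The deposited intervals there are shorter than elsewhere: in 94 of the 96 naïve cells they span 37 to 50 bp, starting between 16140 and 16150 and ending between 16187 and 16192 (commonest chrM:16148-16190). Of all 1314 peaks, 1218 were 150 bp wide. Control-region peaks made up 93 of the 302 peaks on the - strand and 62.4% of its tags (34176 of 54788). On the + strand the control region held 2 peaks, in 2 cells.

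The rest of the - strand was mostly opposite genes of the + strand. There were 203 such peaks, in 88 cells, with 36.9% of the strand's tags. The 9 annotated genes of the - strand, by contrast, held 6 peaks and 402 tags. Among them mt-Nd6, the 1 protein-coding gene of this strand, had 2 peaks in 2 cells with 150 tags, and 19 peaks with 5554 tags lay opposite it. The sites that recurred were 2559- opposite mt-Rnr2 (62 cells, the same centre in all 62), 1983- opposite mt-Rnr2 (38 cells, 1 centre), 15353- opposite mt-Tt (29 cells) and 222- opposite mt-Rnr1 (17 cells). Their signal medians were 547.65, 438, 301.7 and 315.1. Each is low beside the + strand. Their median folds over local tag density were 54.45, 29.365, 11.94 and 22.46, against a median of 41.63 over all - strand peaks. By the caller's settings every listed peak had to reach a fold of 2. On the + strand, 3777+ opposite mt-Tq was listed in 16 cells at 1 centre, with a median focus ratio of 0.9965 and a median fold of 2.42.

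By gene, the tags were spread very unevenly. A peak was given to the gene on its strand that contains its centre or whose 5′ end lies within 50 bp, and 94.6% of tags found a gene. The 2 rRNA genes held 36.8% of tags, the 13 protein-coding genes 57.7%, and the 22 tRNA genes 0.214%, with 4 tRNA genes listed. Tags mark 5′ ends, so a longer gene need not hold more of them, and mt-Nd5 held more tags (71858) than mt-Rnr1 (57708). Per length, mt-Rnr2 and mt-Co1 led, with 1564 and 1472 tags per kb of gene per 1000000 tags in peaks over all cells. Then came mt-Cytb with 741, mt-Nd1 with 548, mt-Rnr1 with 330, mt-Nd5 with 215 and mt-Nd4 with 197. The gene of another complex I subunit, mt-Nd2, had 62.97, and mt-Nd6 had 1.58.

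The ranges over cells overlap for neighbours in this order. On the same scale, mt-Rnr2 was 766, 1491 and 6027 at the lowest, median and highest cell, and mt-Co1 was 0, 1192 and 6575. For mt-Cytb the values were 300.1, 740 and 4032. These 3 genes were listed in 92, 91 and 92 cells. In mt-Nd1 (75 cells) the median was 497 and the highest 1702, in mt-Rnr1 (79 cells) 334 and 2222, in mt-Nd5 (89 cells) 185 and 715, and in mt-Nd4 (82 cells) 192 and 876. The lowest cell was at 0 in each of these 4 genes. By contrast mt-Nd2 was listed in 18 cells. A 0 here means that no peak was listed, not that no RNA was present.

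**Figure D3:**
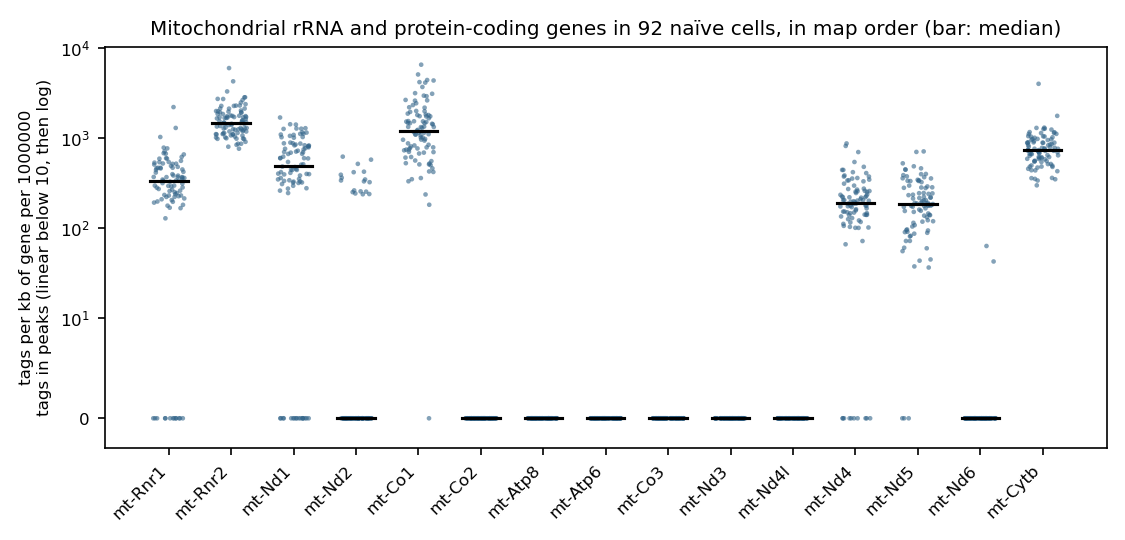
Tags per kb of gene per 1000000 tags in peaks (vertical axis, linear below 10 and log above) for the 2 rRNA and 13 protein-coding genes in map order, 1 point per kept naïve cell, with the median as a bar. The 6 genes from mt-Co2 to mt-Nd4l are at 0 in all 92 cells, while the genes on either side reach medians of 1192 (mt-Co1) and 192 (mt-Nd4).

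The 6 protein-coding genes at 0 are neighbours on the chromosome. They are mt-Co2 and mt-Co3 (cytochrome c oxidase), mt-Atp8 and mt-Atp6 (ATP synthase), and mt-Nd3 and mt-Nd4l (complex I). In all 96 naïve cells the + strand had no centre between 6191 and 11000, a stretch of 4809 bp. Its next longest empty stretch was 684 bp, not counting the one across the end of the numbering. The - strand had no centre between 6428 and 11275 (4847 bp, next longest 1278 bp). Both strands were empty over 4572 bp that hold 11 genes whole.

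Most of this stretch is repeated, letter for letter, in nuclear transcripts. Of the 50-base stretches that begin inside it, 88.1% (3759 of 4268) occur unchanged in a GENCODE transcript of a nuclear gene, against 5.87% (605 of 10313) in the rest of the covered chromosome. Such stretches lie in 16 nuclear genes, 9 of them with at least 200, among them Gm28439 (827), Gm28437 (734) and Gm28661 (632). By gene, the copied share was 100% for mt-Co2, 99.9% for mt-Co3, 99.5% for mt-Atp6, 98.8% for mt-Nd4l and 98.0% for mt-Nd3. The small gene mt-Atp8, also at 0, had 0%. So did the tRNA genes inside the stretch, mt-Ts1, mt-Td, mt-Tk, mt-Tg and mt-Tr, which were at 0 as well. Only annotated transcripts were searched, not the nuclear genome, so a share of 0% does not mean that no nuclear copy exists. The 2 genes at the edges were intermediate, mt-Nd4 with 62.2% and mt-Co1 with 51.1%. All 3 of mt-Rnr1, mt-Nd1 and mt-Cytb were at 0%. None of the 1191 peaks with letters has its first 50 bases in a nuclear transcript. These peaks repeat the same bases in many cells (6191+ is 1 centre in 89 cells), so they are not independent. The 5.87% outside the empty region counts each position once and is not a like measure. How reads that match more than 1 place were treated is not given in the sources used here, and its part in the empty stretch was not tested.

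Most sites were not at annotated 5′ ends. Of 1287 peaks, 125 (9.71%) had their centre within 10 bp of the 5′ end of a gene on their strand, with 9.28% of tags, in 87 cells. Of all strand positions with letters, which leave out the control region, 2.32% lie that close. That share counts each position once, while the 125 peaks repeat the same bases over cells. At the first base of mt-Cytb alone there were 84 of them, so the shares are not like measures. Of the 125 peaks, 86 belong to mt-Cytb, 27 to mt-Nd1, 6 to mt-Rnr1, 4 to mt-Tp and 2 to mt-Tl1. At mt-Nd1 the centre was the first base in 7 cells and 1 base inside in 19. No peak lay within 10 bp of the 5′ end of mt-Rnr2, mt-Co1, mt-Nd2, mt-Nd4, mt-Nd5 or mt-Nd6. The genes with the most listed tags per length, mt-Rnr2 and mt-Co1, were thus represented by sites farther inside the gene.

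The base before the centre was mostly guanine. It was guanine in 839 of the 1104 peaks with letters there, and in 18.4% of all positions. On the + strand it was guanine in 71.8% of peaks against 12.4% of positions, and on the - strand in 94.2% against 24.4%. Both preceding bases were guanine in 43.4% of peaks, against 4.58% of all positions. For GG the + strand had 36.5% of peaks against 2.42% of positions, and the - strand 73.3% against 6.74%. At the centre itself, guanine was rare, at 3.36% on the + strand and 2.87% on the - strand. Counted once each, 108 of 316 distinct centres followed GG (34.2%) and 199 followed G. By tags, 27.3% followed GG and 79.2% followed G. The leading mt-Co1 site follows TG, the pair before 37.4% of tags.

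**Figure D4:**
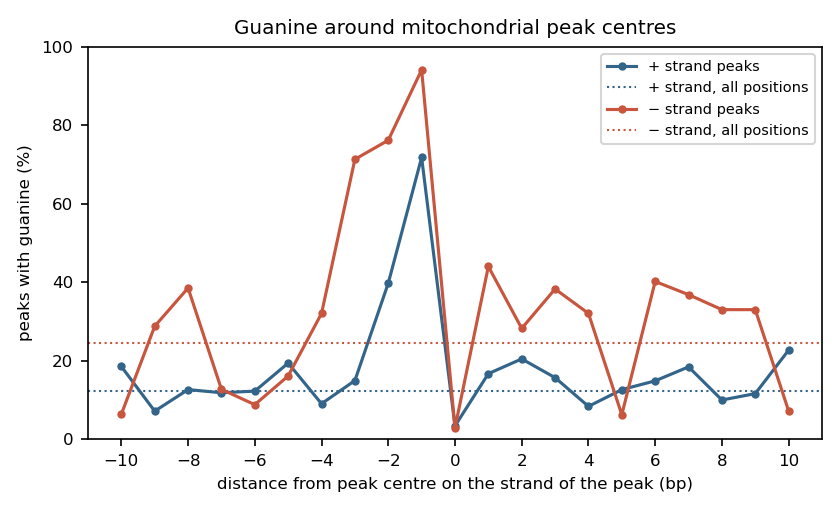
Share of mitochondrial peaks with guanine (%, vertical axis) by distance from the peak centre along the strand of the peak (bp, horizontal axis), for the + strand (blue) and the - strand (red), with each strand's share over all positions as a dotted line. Both curves are highest 1 base before the centre (71.8% and 94.2%) and fall to 3.36% and 2.87% at the centre.

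Among the 24 recurring sites, 22 have letters before the commonest centre. Of these, 19 follow G and 14 follow GG, as the printed sequences show for 3337+, 11126+, 179+, 3777+, 2559- and 1983-. The exceptions with many tags are 2213+, which follows TA, and 1865+, which follows CC, both in mt-Rnr2. The other is 12806+ in mt-Nd5, which follows GA. Peaks at annotated 5′ ends could be read in 37 cases: 27 followed G and 7 followed GG. The 84 peaks at the first base of mt-Cytb have no letters before the centre and are not among these. Of the 37, 19 share the centre of 2752+, which follows AG, so these counts repeat the same bases over cells. The median focus ratio was 0.847 for the 479 peaks after GG and 0.879 for the other 625.

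Mitochondrial peaks were less focused than nuclear peaks of the same cells. The median focus ratio of all 1287 was 0.888, with quartiles of 0.6905 and 0.973. It was 0.864 on the + strand and 0.934 on the - strand. At least 0.9 was reached by 48.3% of peaks, and 142 peaks were below 0.5. Taken per cell, the mitochondrial median was 0.893 (0.621 to 0.984 over cells) and the nuclear median 0.978 (0.933 to 0.987). The mitochondrial median was the lower in 91 of 92 cells.

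Their surroundings also held tags, where those of nuclear peaks often did not. The deposited fold over the local tag density had a median of 8.725 over cells for mitochondrial peaks (3.735 to 22.18). The + strand's median was 5.3 and the - strand's 41.63. For nuclear peaks no such fold is given here, since 55.1% of them were listed with surroundings of at most 1 tag, where the fold is set by the peak's own tags and by depth. This was so for 1 of the 1287 mitochondrial peaks. The surroundings are 10000 bp, which is much of this small chromosome, so that a mitochondrial peak is set against a region that can hold several others. Per the file headers a peak had to exceed these surroundings 2 times, and the lowest fold listed was 2. The peak numbers within each file also leave gaps: at least 481 of 1768 mitochondrial numbers (27.2%) have no listed peak, against 0.792% of 481599 nuclear numbers, and the mitochondrial share was the higher in 92 of 92 cells. A site missing in a cell may therefore have had tags there that were not listed. The part of this filter in the share of cells listing each site, and in the number and signal of listed peaks, was not tested.

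**Figure D5:**
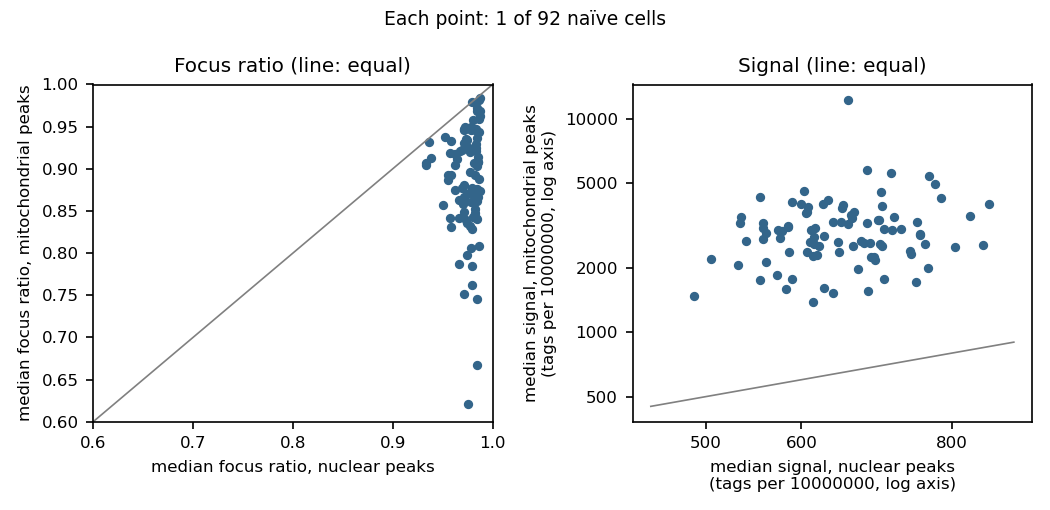
Median focus ratio (left, a fraction) and median signal (right, tags per 10000000 tags of the cell, log axes) of the mitochondrial peaks (vertical) against the nuclear peaks (horizontal) of each of 92 kept naïve cells, with lines of equal values. Nearly all points lie below the line on the left (91 of 92) and all lie above it on the right, with mitochondrial medians of 1384 to 12309 against nuclear medians of 489 to 857.5.

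The proteins that copy mitochondrial DNA and those that make, cut, tail, stabilise and degrade mitochondrial RNA are encoded in the nucleus. Of 22 genes of such proteins, 21 were named in the deposited annotation (Mterf1a was not matched), and 19 of these had a peak within 1000 bp of a start in at least 1 cell. Over all 18460 genes that the annotation names, 57.1% did. The median gene was listed in 14 of 92 cells over the 21 and in 1 cell over all 18460. Nothing particular to the list is read from this. Most often listed was Slirp, an RNA-binding protein that stabilises mitochondrial mRNA, in 90 cells. It was followed by Rexo2, an oligoribonuclease, in 78, and by Ssbp1, the mitochondrial single-stranded DNA-binding protein, in 57. Pnpt1, the mitochondrial polynucleotide phosphorylase, was listed in 30. Tefm, the mitochondrial transcription elongation factor, and Hsd17b10, a subunit of mitochondrial RNase P, were listed in 28 each. Summed over the list, the level was 64.7, 734 and 4326 tags per 1000000 tags in peaks at the lowest, median and highest cell.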

How the data were processed

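Polyadenylated RNA of 96 naïve cells was used, 1 peak file per cell. Per the file headers, the authors called peaks in each cell with HOMER's start-site mode, strands separately (150 bp wide, at least 300 bp apart, at least 200 tags per 10000000, 2 times the surrounding 10000 bp, Poisson p of 0.0001). These are the headers' settings: among the 1287 peaks, 3 have a deposited signal below 200, and 7 neighbouring pairs lie under 300 bp apart. Bowtie2, HOMER and build mm9 stand in the submitters' processing notes, without versions. The deposited values are a signal (tags scaled to 10000000 tags of the cell), a focus ratio (a fraction) and a fold over local density. The deposited signal was turned back into tags: all 1082504 peaks came out whole within 0.1 tag or the rounding of the value. Nuclear peaks took gene names from the authors' deposited RefSeq annotation and its distance to the start (another unit, in bp), 99.9% of them matching a window within 2 bp. No pair of cells repeated a tag total. Cells under 10% of the median total tags were left out. In 2 deposited matrices 384 columns without sample names were not used.

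Centres are interval midpoints. Letters came from GENCODE vM21 mitochondrial transcripts, which cover 15365 positions and not the control region. The GRCm38 numbering was used for mm9 after the checks given with the sequences. Intervals are exact binomial (Clopper-Pearson, 95%) and cover counting error only, since tags are reads without molecular identifiers. Python 3.11.15, pandas 2.3.3, numpy 2.4.6, scipy 1.17.1 and matplotlib 3.10.9 were used, and site joining and letter counts were tested on simulated data. Named were all mitochondrial protein-coding and rRNA genes, the sites in at least 10% of cells (in detail the 10 with the most tags), and the 5 nuclear factors listed in most cells, with ties. Members and lists were chosen with earlier results of these data known. Alternatives covered cells kept, denominators, joining distance, odd and even cells, and gene distance.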

Additional observations from a re-analysis of the deposited data

How the results depend on the processing

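No paired analysis was possible because the cell numbers only name cells and no test was made. Tags in listed mitochondrial peaks made up 0.759% of tags in peaks and 0.684% of all tags. Mitochondrial tags outside listed peaks are not counted as mitochondrial in either share. Of tags in peaks, the share was 0.761% over all 96 cells. In the 75 cells with at least 50% of the median total tags it was 0.756%. The share was 0.801% in odd-numbered and 0.712% in even-numbered cells, and 0.796% as the mean of the cells' own shares. Without the cell of the highest share, an alternative chosen after seeing the data, it was 0.756%. The + strand's share of tags, 96.06%, was 96.12% as a mean of cells, 96.01% in the deeper cells, 96.11% in odd and 95.99% in even cells. The leading site's 28.4% was 28.7% with centres joined within 50 bp, 26.3% as a mean of cells, 30.3% in odd and 26.1% in even cells, and 27.8% without the cell that had most tags there. These differences exceed the counting intervals, which are narrow at this depth. The 142 sites became 238 with joining within 5 bp and 92 within 50 bp. The 24 recurring sites became 42 at 5% of cells and were 17 to 30 under the other settings. The median focus ratio of 0.888 compares with a mean of 0.807, added after seeing the data, and a mean weighted by tags of 0.819. Tags given to a gene rose from 94.6% to 95.8% with 5′ ends within 100 bp. For the letters, also chosen after seeing the data, peaks after GG were 43.4%, 40.1% at a focus ratio of at least 0.9, 34.2% of distinct centres, 27.3% of tags, 36.5% on the + strand and 73.3% on the - strand. The copied share of the empty stretch was 88.1%, and 83.9% with stretches of 100 bases. The causes of these differences were not tested. A site or gene at 0 is limited by the peak caller's minimum, not by a count.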

Other observations

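The 4 naïve cells left out for low depth held 27 mitochondrial peaks. In 3 of them, naïve cells 20, 47 and 85 (21266, 9334 and 18787 tags), the mitochondrial share was 0.505%, 0.951% and 0.692%, and the mt-Co1 site was the tallest mitochondrial peak. In naïve cell 91 (36693 tags) the share was 18.01% (95% exact interval 17.5% to 18.5%), and the tallest peak, with 1643 of 3926 mitochondrial tags, was at 1118 on the + strand, 24 bp into mt-Rnr2. Among the kept cells that site was listed in 4, with signals of 11101 to 24496 and a median focus ratio of 0.259. It was singled out after its values were seen.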
